A study of Homo sapiens with 12 samples.

Results

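RAB genes encode the largest branch of the RAS superfamily of small GTPases, the switches that give each membrane compartment of a cell its identity and direct vesicles to it. The members described here are the entries of the deposited expression table whose gene symbol is RAB followed by a number and at most a letter and a final digit. This rule found 61 of 26125 entries. It leaves out RAB-like genes, read-through transcripts such as RAB4B-EGLN2, and RAB40AL. RNA was sequenced from Caco-2 cells, a line from a human colon tumour whose cells polarise and take on features of enterocytes, in 12 libraries. The cells differentiated on transwell filters over 21 days and were then kept in Hanks' salt solution with HEPES for the exposure. The 4 groups of 3 libraries were ochratoxin A with Bacillus subtilis CW14 (the combined group), ochratoxin A alone (OTA), Bacillus subtilis CW14 alone (CW14), and neither agent (control). Ochratoxin A, a mould toxin of stored food, was added at 15 µmol/L to the apical chamber, and CW14 is described in the series title as a probiotic. The labels do not give the length of exposure, and the dose of bacteria cannot be read from them with certainty. All libraries come from 1 tumour cell line without the mucus, immune cells or other cell types of gut tissue. Nothing in the labels says that the 3 libraries of a group came from separate cultures, so the p-values reflect only how these samples vary, and that variation may be technical.

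A RAB protein cycles between a GDP-bound form kept in the cytosol and a GTP-bound form that sits on a membrane by its prenyl tail and recruits motors, tethers and sorting proteins. Exchange factors load GTP, and GTPase-activating proteins of the TBC family end the signal. In an enterocyte the RAB11 family and RAB8 deliver brush border hydrolases and transporters to the apical membrane through recycling endosomes, with myosin Vb and the exocyst complex as partners. Loss of myosin Vb in people causes microvillus inclusion disease, in which apical cargo is held inside the cell. Other members act between the endoplasmic reticulum (ER) and the Golgi, on early and late endosomes, at cell junctions, or on secretory granules.

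The values are FPKM, fragments scaled to transcript length and to library size, so levels can be set side by side between genes only roughly. How library size was scaled is not stated. Differences are on the log2(FPKM + 1) scale, and a gene is called at an adjusted p under 0.05 in a limma fit to the 12928 genes whose mean over the 12 libraries reached 1 FPKM. FPKM do not give the number of fragments, but low values are worth a few fragments each, and their commonest ratio to control replicate 1 (values under 0.3 FPKM) gave relative depths of 0.471 to 0.672 in the combined group, 0.66 to 1.6 in OTA, 0.775 to 0.893 in CW14 and 0.91 to 1.58 in control. Combined replicate 3 had the lowest depth and stood apart. Its residual SD was 0.588 on the log2 scale, against 0.305 to 0.424 in the other 11 libraries, and its mean correlation with its own group was 0.885, against 0.916 to 0.958 elsewhere. Results that rest on it are therefore also given without it. Of 20 enterocyte markers, 17 reached a mean of 1 FPKM, while SI, FABP2 and CDX1 did not. The summed enterocyte markers ran from 11365 to 28728 FPKM in the combined group, 12306 to 13201 in OTA, 9947 to 10794 in CW14 and 11203 to 11872 in control. The highest sum was that of combined replicate 3, and most of it was 1 gene. APOA1 was 19185 FPKM there, against 7219 and 5364 FPKM in combined replicates 1 and 2. Of 16 markers of immune, endothelial, stromal and muscle cells, CD68, LYZ, CD14, COL1A1 and PECAM1 reached 1 FPKM. The 16 summed to 111.1 to 141.7 FPKM in the combined group, 170.2 to 209.2 in OTA, 103.3 to 128 in CW14 and 122.5 to 156.3 in control, and PTPRC and COL1A2 were listed at 0 in all 12 libraries. The part of these differences in the results was not tested. In bulk RNA, fewer cells and less RNA per cell cannot be told apart.

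Of the 61 members, 49 passed the filter and were tested. In control monolayers 4 members were above 100 FPKM, 33 lay between 10 and 100, 10 between 1 and 10, and 14 below 1. The most abundant was RAB6A, which acts in traffic between endosomes, Golgi and ER, at 213.1 ± 16.2 FPKM (SD, n = 3). RAB7A, the RAB of late endosomes and lysosomes, averaged 210.7 ± 14.9 FPKM, and RAB1A, which carries cargo from ER to Golgi, averaged 198.6 ± 10.8 FPKM. The library ranges of these leading members overlapped, so their order is not resolved. RAB1B, the paralogue of RAB1A, followed at 143.1 ± 5.55 FPKM, below all 3 of them and above all members after it. RAB9A (95.4 ± 5.4 FPKM), RAB5C (93.1 ± 3.40 FPKM), RAB10 (89.6 ± 13.2 FPKM) and RAB25 (85.5 ± 6.12 FPKM) came next.

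The members under a mean of 1 FPKM were RAB19, RAB27B, RAB34, RAB36, RAB38, RAB39A, RAB39B, RAB3C, RAB40A, RAB41, RAB44 and RAB9B. They include RAB3C, a neuronal secretory member listed at 0 in all 12 libraries, and RAB38, a RAB of melanosomes. RAB6C, a retrocopy close in sequence to RAB6A, averaged 1.25 ± 0.407 FPKM in control, and reads of the pair may have been shared between them. The deposited locus of RAB4B also holds EGLN2, that of RAB11B holds RAB11B-AS1 and ANGPTL4, that of RAB15 holds GPX2, CHURC1 and MAX, that of RAB37 holds CD300LF, that of RAB43 holds ISY1, that of RAB1A holds CEP68 and that of RAB5A holds PP2D1. The labels do not say that counting used strand, so reads may have been shared at these loci and at others where genes overlap.

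**Figure D1:**
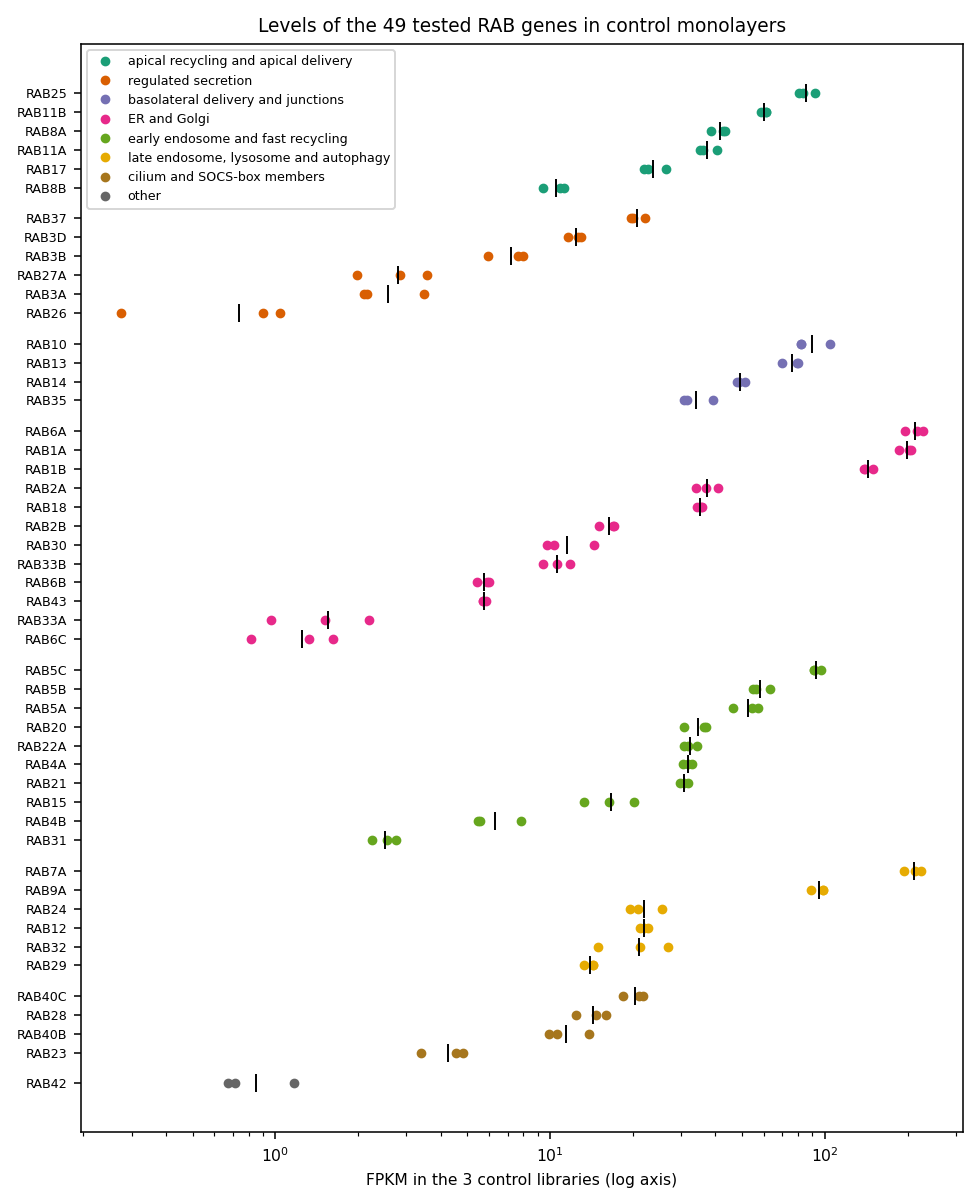
FPKM of the 49 tested RAB genes in the 3 control libraries on a log axis, ordered by level within each role; each dot is a library and each tick the mean. RAB6A, RAB7A and RAB1A stand near 200 FPKM, RAB25 leads the apical recycling members at 85.5 FPKM, and RAB26 and RAB42 have means under 1 FPKM.

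The 6 members of apical recycling and apical delivery were all expressed. RAB25, an epithelial form of the RAB11 family, was the most abundant of them in control at 85.5 ± 6.12 FPKM, followed by RAB11B (60.3 ± 1.53 FPKM), RAB8A (41.5 ± 2.56 FPKM), RAB11A (37.3 ± 2.85 FPKM), RAB17 (23.7 ± 2.36 FPKM) and RAB8B (10.5 ± 0.980 FPKM). With OTA alone none of the 6 was called, beside 4.82% of all genes called higher and 12.9% lower. In the fit without combined replicate 3, RAB25 and RAB11A were called higher with OTA, beside 14.7% and 19.0% of all genes. With CW14 added to OTA, RAB11A fell and RAB8A rose. The summed FPKM of the 6 genes was 272.6, 244.5 and 394 in the combined group, 317.5, 296.9 and 302.4 in OTA, 244, 280.7 and 236 in CW14, and 255.7, 259.3 and 261.2 in control. The OTA sums lay above the CW14 and control sums in every library, while combined replicate 3 lay above all others and combined replicates 1 and 2 lay within the CW14 range.

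RAB11A and RAB25 belong to the same family and had unlike promoters, which are shown for that reason. The sequences are the 250 bases before the RefSeq start in GRCh38.p14, on the gene's strand, and capitals mark a GC box (GGGCGG), a cyclic AMP response element (TGACGTCA) or a CCAAT box (CCAAT) on either strand. The RAB11A window lies at chr15:65869241-65869490 on the + strand and the RAB25 window at chr1:156060910-156061159 on the + strand.
RAB11A: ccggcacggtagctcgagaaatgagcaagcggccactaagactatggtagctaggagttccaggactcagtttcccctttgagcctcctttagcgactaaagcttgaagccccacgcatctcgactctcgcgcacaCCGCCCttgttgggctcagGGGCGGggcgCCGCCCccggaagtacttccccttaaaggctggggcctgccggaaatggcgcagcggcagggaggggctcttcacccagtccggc
RAB25: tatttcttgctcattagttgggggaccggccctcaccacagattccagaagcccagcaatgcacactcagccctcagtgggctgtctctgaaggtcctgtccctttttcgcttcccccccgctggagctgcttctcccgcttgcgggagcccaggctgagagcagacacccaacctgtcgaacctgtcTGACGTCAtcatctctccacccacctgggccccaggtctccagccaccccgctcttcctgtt
The RAB11A window held 3 GC boxes and no cyclic AMP response element, and the RAB25 window held 0 GC boxes and 1 cyclic AMP response element. Such an element was found in 1.65% of all 35116 promoter windows and in 1.47% of the 68 windows of RAB genes. A GC box was found in 42.6% of all windows and in 73.5% of the RAB windows. A match is a string of letters and not evidence of binding.

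RAB11A (chromosome 15, 66161795 to 66184329 in hg19), the RAB of the recycling endosome, had 28.8, 34.4 and 24.4 FPKM in the combined group, 42.8, 45.4 and 47.0 FPKM in OTA, 42.6, 43.3 and 38.7 FPKM in CW14, and 40.5, 36.1 and 35.2 FPKM in control. All 3 combined libraries lay below every library of the other 3 groups. The combined group was lower than OTA by a log2 difference of -0.62 (SE 0.14, limma adjusted p = 0.0134) and lower than CW14 by -0.50 (SE 0.14, adjusted p = 0.0155). With combined replicate 3 left out, these were -0.50 (adjusted p = 0.00885) and -0.39 (adjusted p = 0.0169). The first call was lost without OTA replicate 2 or 3 and the second without CW14 replicate 2. Adjusted p ran from 3.91e-06 to 0.103 over the alternatives of the first and from 2.97e-05 to 0.102 over those of the second. Against control the combined group did not pass the test (-0.35, adjusted p = 0.0714), nor did OTA (0.27, adjusted p = 0.202). Every OTA library lay above every control library, and OTA against control passed without combined replicate 3 (adjusted p = 0.0475). Its adjusted p ran from 0.00794 to 0.422 over the alternatives.

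RAB8A (chromosome 19, 16222488 to 16244445), which carries cargo to the apical membrane and to cilia, moved the other way. It had 51.3, 46.8 and 62.3 FPKM in the combined group, 35.1, 36.6 and 32.4 FPKM in OTA, 35, 41.4 and 41.5 FPKM in CW14, and 43.3, 42.6 and 38.5 FPKM in control. Every combined library lay above all 9 others, and every OTA library lay below every control library. RAB8A rose in the combined group against OTA by 0.60 (SE 0.13, limma adjusted p = 0.0143) and against CW14 by 0.43 (SE 0.13, adjusted p = 0.0292). In the fit that left out combined replicate 3, the differences were 0.49 (adjusted p = 0.00999) and 0.32 (adjusted p = 0.0400). The first call was lost without OTA replicate 3 and the second without CW14 replicate 1 or 2. Adjusted p ran from 1.24e-05 to 0.1 over the alternatives of the first and from 0.000232 to 0.138 over those of the second. Against control the combined group missed the threshold (0.35, adjusted p = 0.069) and was called in 5 of 23 alternatives. Without combined replicate 3 this difference was 0.24 (adjusted p = 0.11). OTA against control gave -0.25 (adjusted p = 0.229).

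RAB25 (chromosome 1, 156030964 to 156040295) had 92.2, 78.4 and 144.3 FPKM in the combined group, 140.3, 122.3 and 125.4 FPKM in OTA, 86.4, 100.7 and 70.5 FPKM in CW14, and 80.5, 83.6 and 92.3 FPKM in control. The OTA libraries lay above all CW14 and control libraries, and combined replicate 3 lay above every other library while combined replicates 1 and 2 lay within the CW14 range. In the fit to all libraries RAB25 missed the threshold in OTA against control (0.59, SE 0.20, limma adjusted p = 0.0647) and in the combined group against OTA (-0.34, adjusted p = 0.254). When combined replicate 3 was left out, both passed it, at adjusted p = 0.00419 and, with a difference of -0.60, at adjusted p = 0.0138. Over all alternatives adjusted p ran from 0.000251 to 0.182 for the first and from 0.000117 to 0.561 for the second.

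RAB11B had 66.4, 53.0 and 116.4 FPKM in the combined group, 60.8, 53.7 and 60.3 FPKM in OTA, 47.7, 53.2 and 48.2 FPKM in CW14, and 58.5, 61.2 and 61.1 FPKM in control. RAB17, an epithelial RAB of recycling endosomes and transcytosis, had 25.8, 21.5 and 41.9 FPKM in the combined group, 26.9, 24.3 and 24.8 FPKM in OTA, 21.3, 26.3 and 25.4 FPKM in CW14, and 21.9, 26.4 and 22.8 FPKM in control. In both genes combined replicate 3 was the highest library, and without it the RAB17 groups overlapped, while the RAB11B libraries of CW14 lay below those of control. Neither was called in any comparison. For OTA against control the 95% interval was -0.53 to 0.43 for RAB11B and -0.35 to 0.54 for RAB17. RAB8B, the paralogue of RAB8A, had 8.11, 10.4 and 4.65 FPKM in the combined group, 11.7, 14.7 and 12.6 FPKM in OTA, 11, 15.8 and 11.7 FPKM in CW14, and 10.9, 9.39 and 11.2 FPKM in control. The combined libraries of RAB8B lay below all OTA and CW14 libraries, and combined replicate 3 was the lowest. RAB8B fell against CW14 (-0.71, SE 0.23, limma adjusted p = 0.0343), a call lost without combined replicate 3 (-0.43, adjusted p = 0.0745), without CW14 replicate 2 or 3, and with adjusted p from 0.00113 to 0.147 over the alternatives. Against OTA it missed the threshold (-0.73, adjusted p = 0.05012).

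**Figure D2:**
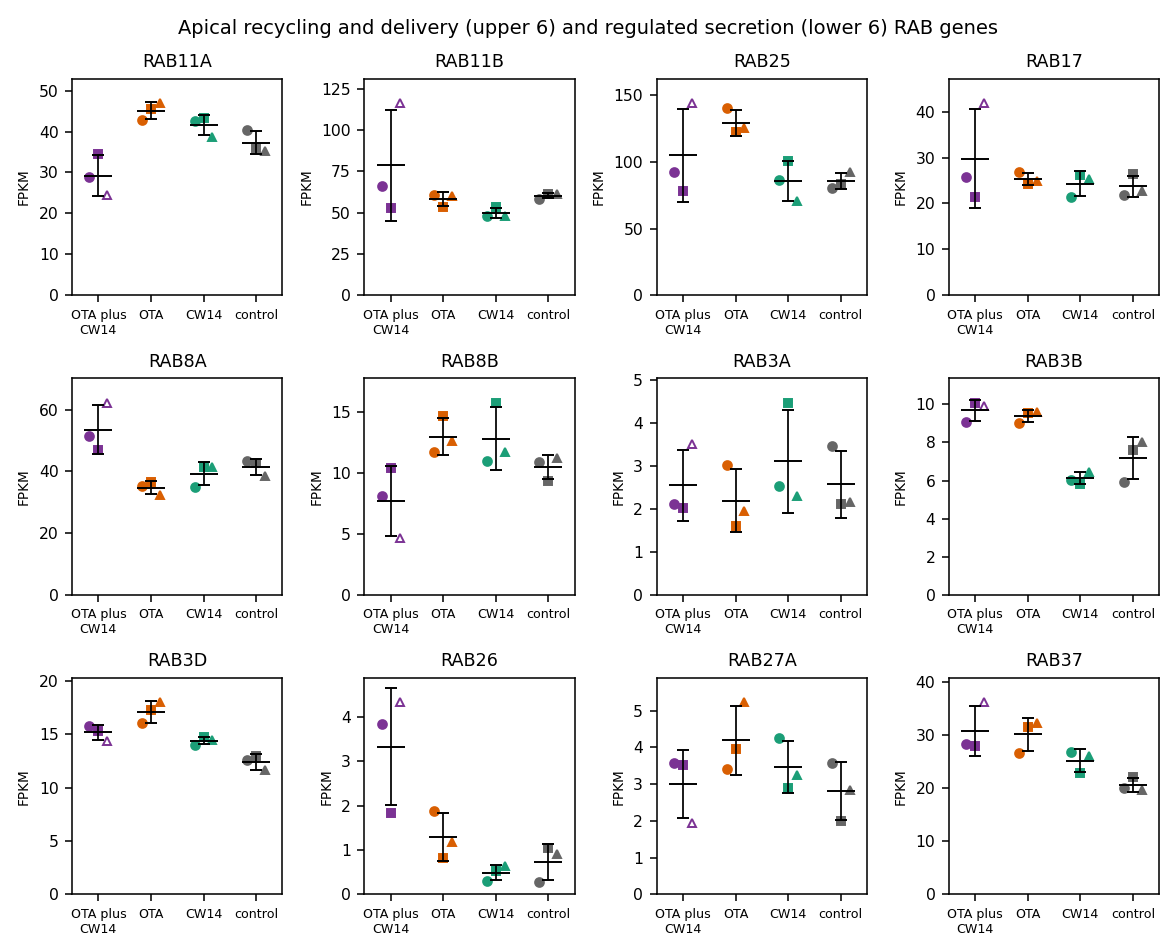
FPKM of the 6 apical recycling and delivery members and the 6 tested secretory members in each library, from left to right OTA plus CW14, OTA, CW14 and control. Circles, squares and triangles are replicates 1, 2 and 3, the open triangle is combined replicate 3, and bars are the mean and SD of 3 libraries. RAB11A is lowest and RAB8A highest in the combined group, and RAB37 and RAB3D lie higher in OTA than in control.

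The secretory members were less abundant. Of 8, RAB27B and RAB3C were under the filter. Of the 6 tested, RAB37 and RAB3D rose with OTA and 0 fell, beside 4.82% of all genes called higher and 12.9% lower. Both calls were lost without control replicate 1, among other libraries given below. The summed FPKM of the 8 genes was 63.7, 61.4 and 70.5 in the combined group, 60.4, 65.6 and 69.2 in OTA, 54.3, 51.5 and 53.9 in CW14, and 46.6, 48.5 and 45.6 in control. Libraries with OTA lay above all libraries without it. The median log2 difference of the 6 tested members in OTA against control was 0.42, beside 0.03 over all genes tested. RAB37 contributed more to the sum than any other of the 8 in every library.

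RAB37 (chromosome 17, 72667254 to 72743474), known from mast cell granules, had 28.3, 27.9 and 36.2 FPKM in the combined group, 26.6, 31.5 and 32.3 FPKM in OTA, 26.8, 22.8 and 26.0 FPKM in CW14, and 20.1, 22.1 and 19.7 FPKM in control. The control libraries lay below all others. It rose in OTA against control by 0.52 (SE 0.14, limma adjusted p = 0.0234) and in the combined group against control by 0.55 (SE 0.14, adjusted p = 0.0133). Without combined replicate 3, these were 0.52 (adjusted p = 0.0026) and 0.43 (adjusted p = 0.0146). The OTA call was lost without control replicate 1 or 3 or OTA replicate 2 or 3, and its adjusted p ran from 0.00101 to 0.0978 over the alternatives, against 0.000111 to 0.0716 for the combined group. CW14 against control gave 0.28 (adjusted p = 0.798). The neighbouring CD300LF shares the deposited locus.

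RAB3D (chromosome 19, 11406813 to 11450344), a RAB of exocrine granules, had 15.8, 15.3 and 14.4 FPKM in the combined group, 16.0, 17.3 and 18.0 FPKM in OTA, 14, 14.7 and 14.5 FPKM in CW14, and 12.6, 13 and 11.6 FPKM in control. Control was again the lowest group, and OTA the highest. It rose in OTA against control by 0.44 (SE 0.11, limma adjusted p = 0.0210, and 0.00364 without combined replicate 3). The call was lost without any of the 3 control libraries and without OTA replicate 2 or 3, with adjusted p from 0.000918 to 0.0895 over the alternatives. RAB3B, found in epithelia near junctions, had 9.07, 10.1 and 9.92 FPKM in the combined group, 9.03, 9.55 and 9.61 FPKM in OTA, 6.05, 5.84 and 6.46 FPKM in CW14, and 5.94, 7.63 and 8 FPKM in control. All 6 libraries with OTA lay above all 6 without it. RAB3B rose in the combined group against CW14 (0.59, SE 0.14, limma adjusted p = 0.00759, and 0.57 with adjusted p = 0.00852 without combined replicate 3, with 0.000249 to 0.0668 over the alternatives). Against control its call in the combined group (0.39, adjusted p = 0.04904) was lost in all 12 fits that left out 1 library, with adjusted p up to 0.189. OTA against control gave 0.35 (adjusted p = 0.0991, and 0.0447 without combined replicate 3).

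RAB26 (chromosome 16, 2198649 to 2204141), which acts on secretory granules and lysosomes, was a low member. It had 3.84, 1.83 and 4.34 FPKM in the combined group, 1.88, 0.833 and 1.18 FPKM in OTA, 0.307, 0.531 and 0.642 FPKM in CW14, and 0.274, 1.04 and 0.904 FPKM in control. The combined libraries lay above all CW14 and control libraries and overlapped with OTA. Its mean over the 9 libraries outside the combined group was 0.844 FPKM, so it passed the filter of 1 FPKM only through the group in which it was high. The difference on the log2 scale, 1.30 against control and 1.49 against CW14 (1.12 and 1.32 without combined replicate 3), is therefore given as a description with no test. RAB27A, which docks lysosome-related organelles and exosome-forming endosomes for release, had 3.58, 3.51 and 1.93 FPKM in the combined group, 3.40, 3.95 and 5.23 FPKM in OTA, 4.26, 2.89 and 3.26 FPKM in CW14, and 3.57, 1.99 and 2.85 FPKM in control. RAB3A, the RAB of synaptic and neuroendocrine vesicles, had 2.11, 2.02 and 3.5 FPKM in the combined group, 3.01, 1.60 and 1.95 FPKM in OTA, 2.53, 4.47 and 2.30 FPKM in CW14, and 3.47, 2.1 and 2.15 FPKM in control. In RAB27A and RAB3A all groups overlapped with control, and neither was called in any comparison.

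The comparison of OTA with control concerns the toxin by itself. Over all roles 5 members rose (RAB5C, RAB4A, RAB37, RAB29 and RAB3D) and 3 fell (RAB30, RAB9A and RAB35) of the 49 tested. The background was 4.82% of all genes called higher and 12.9% lower, and the members' shares were 10.2% and 6.12%. The median log2 difference was 0.10 over the 49 members and 0.03 over all genes tested. Centring each library on its median shifts the OTA libraries against control, since the median of all genes was lower in OTA by a log2 value of -0.11. Relative to it the members' median was 0.20. This shift is the same for every gene, so the members' distance from all genes did not change. The split of called members became 8 higher and 3 lower. Quantile normalization also gave 8 higher and 3 lower, and upper-quartile scaling 9 higher and 3 lower. The share of all genes called under these scalings is not given. Leaving out a library of the compared groups reduced the count of called rises and not of called falls. The 3 falls were the largest of the called differences, and the share of all genes called in these fits is not given. The split was 1 higher and 3 lower without control replicate 1, control replicate 3 or OTA replicate 3, 2 higher and 3 lower without OTA replicate 2, and 3 higher and 3 lower without control replicate 2 or OTA replicate 1. In the fit that left out combined replicate 3, which enters this comparison only through the shared estimate of spread, 14 members were called higher and 6 lower, beside 14.7% and 19.0% of all genes. All 8 calls were among these 20.

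The 3 members that fell with OTA belong to different compartments. RAB30 and RAB9A were lower in both groups given the toxin than in both groups without it. RAB35 was lower in the combined group than in control (-0.43, limma adjusted p = 0.04584). The call was lost in 10 of the 12 fits that left out 1 library, that without combined replicate 3 included (adjusted p = 0.0783). It was kept in 6 of 23 alternatives, with adjusted p from 0.0272 to 0.17. The combined group did not differ from CW14 in RAB35 (-0.02, adjusted p = 0.917). The promoter windows of all 3 members are shown because they gave the largest falls, with capitals as above. RAB9A lies at chrX:13688878-13689127 (+ strand), RAB35 at chr12:120116754-120117003 (- strand) and RAB30, taken at the most upstream of 3 RefSeq starts, at chr11:83071898-83072147 (- strand).
RAB30: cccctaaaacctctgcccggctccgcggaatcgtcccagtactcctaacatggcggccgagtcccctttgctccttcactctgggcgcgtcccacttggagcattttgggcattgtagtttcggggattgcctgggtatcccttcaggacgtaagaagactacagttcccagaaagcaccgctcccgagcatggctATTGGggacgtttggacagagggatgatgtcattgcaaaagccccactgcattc
RAB9A: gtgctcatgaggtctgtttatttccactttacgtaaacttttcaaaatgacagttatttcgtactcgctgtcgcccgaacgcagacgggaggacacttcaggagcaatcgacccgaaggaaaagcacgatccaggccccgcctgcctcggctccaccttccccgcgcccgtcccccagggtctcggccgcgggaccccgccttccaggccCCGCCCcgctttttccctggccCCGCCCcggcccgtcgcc
RAB35: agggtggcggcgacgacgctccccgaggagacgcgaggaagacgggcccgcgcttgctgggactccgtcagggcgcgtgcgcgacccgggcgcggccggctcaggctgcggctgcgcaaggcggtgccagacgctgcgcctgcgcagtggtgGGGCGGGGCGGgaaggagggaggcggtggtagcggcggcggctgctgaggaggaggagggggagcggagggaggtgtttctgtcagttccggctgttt
RAB9A held 2 GC boxes, RAB35 held 2 that overlap each other, and RAB30 held no GC box and 1 CCAAT box. A CCAAT box was found in 32% of all windows and 27.9% of RAB windows. None of these motifs occurred in all 3 windows.

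RAB30 (chromosome 11, 82684173 to 82782965 in hg19), a RAB of the Golgi, had 3.07, 2.60 and 4.37 FPKM in the combined group, 3.82, 4.31 and 3.32 FPKM in OTA, 14, 16.1 and 13.2 FPKM in CW14, and 14.5, 9.75 and 10.3 FPKM in control. All 6 libraries with OTA lay below all 6 without it. OTA cells held 33.1% of the control mean and combined cells 29.1%. The fall in OTA against control was -1.36 (SE 0.19, limma adjusted p = 0.000435, and 7.96e-05 without combined replicate 3), and it was called in all 23 alternatives (adjusted p from 4.91e-06 to 0.00373). The combined group differed from OTA by -0.16 with a 95% interval of -0.58 to 0.26.

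RAB9A (chromosome X, 13707238 to 13727944), which returns mannose 6-phosphate receptors from late endosomes to the Golgi, had 35.2, 32.0 and 20.9 FPKM in the combined group, 50.8, 51.7 and 38.0 FPKM in OTA, 122.3, 91.4 and 109.5 FPKM in CW14, and 98.5, 89.2 and 98.6 FPKM in control. The groups were ordered without overlap, with every combined library below every OTA library and every OTA library below all CW14 and control libraries. RAB9A fell in OTA against control by -1.02 (SE 0.19, limma adjusted p = 0.00339, and 0.000185 without combined replicate 3), called in all 23 alternatives (2.15e-05 to 0.0218). It fell further in the combined group against OTA (-0.67, SE 0.19, adjusted p = 0.0366). That second call was lost without combined replicate 3 (-0.46, adjusted p = 0.0505) and without control replicate 1, 2 or 3, CW14 replicate 3 or OTA replicate 1 or 2, with adjusted p from 0.0016 to 0.157 over the alternatives. The mean fell to 30.8% of control in the combined group and to 49.1% in OTA.

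RAB35 (chromosome 12, 120532897 to 120554643), which drives fast recycling to the plasma membrane and acts at cell contacts, had 29, 24.2 and 21.4 FPKM in the combined group, 17.8, 17.6 and 16.7 FPKM in OTA, 27.8, 22.3 and 25.5 FPKM in CW14, and 31.6, 30.7 and 39.3 FPKM in control. OTA was the lowest group, control the highest, and the combined and CW14 libraries overlapped between them. RAB35 fell in OTA against control by -0.92 (SE 0.15, limma adjusted p = 0.00114, and 0.000186 without combined replicate 3), called in all 23 alternatives (1.61e-05 to 0.00824). It was higher in the combined group than in OTA by 0.49 (SE 0.15, adjusted p = 0.0446, and 0.59 with adjusted p = 0.0126 without combined replicate 3). This rise was called in 8 of 23 alternatives, with adjusted p from 1.11e-05 to 0.148. It was lost without control replicate 1 or 2, CW14 replicate 1 or 3, any OTA library or combined replicate 1.

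Besides RAB37 and RAB3D, the members that rose with OTA were RAB5C, RAB4A and RAB29. RAB5C (chromosome 17, 40276992 to 40307062), a RAB of early endosome fusion, had 146.6, 116.2 and 122.7 FPKM in the combined group, 130.9, 136.7 and 136.1 FPKM in OTA, 97.5, 96.3 and 84.7 FPKM in CW14, and 91.3, 91.0 and 97.0 FPKM in control. All 6 libraries with OTA lay above all 6 without it. The rise in OTA was 0.53 (SE 0.12, limma adjusted p = 0.00924, and 0.00154 without combined replicate 3), called in all 23 alternatives (6.85e-05 to 0.0408). RAB4A (chromosome 1, 229406807 to 229441640), the RAB of fast recycling from early endosomes, had 31.0, 32.8 and 25.3 FPKM in the combined group, 45.3, 48.7 and 45.2 FPKM in OTA, 29.5, 37.0 and 28.5 FPKM in CW14, and 30.4, 32.9 and 31.9 FPKM in control. The OTA libraries alone stood high, above all 9 others.

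RAB4A rose in OTA against control by 0.53 (SE 0.14, limma adjusted p = 0.0186, and 0.00221 without combined replicate 3) and fell in the combined group against OTA by -0.63 (SE 0.14, adjusted p = 0.0128, and -0.53 with adjusted p = 0.00978 without combined replicate 3). The rise was lost without control replicate 1 or 3 or any OTA library, with adjusted p from 0.000204 to 0.0714, and the fall without OTA replicate 2, with adjusted p from 1.03e-05 to 0.0881. RAB29 (chromosome 1, 205737112 to 205744610), a partner of the kinase LRRK2 at the trans-Golgi and lysosomes, had 17.6, 16.1 and 20.3 FPKM in the combined group, 20.1, 16.9 and 24.1 FPKM in OTA, 12.8, 12.6 and 11.9 FPKM in CW14, and 14.3, 13.3 and 14.3 FPKM in control. All libraries with OTA lay above all without it. It rose in OTA by 0.50 (SE 0.15, limma adjusted p = 0.0328, and 0.00817 without combined replicate 3), a call lost without any control library or OTA replicate 1 or 3, with adjusted p from 0.000944 to 0.150. RAB4B, the paralogue of RAB4A, was higher by 0.84 and missed the threshold (adjusted p = 0.05403, and 0.00267 without combined replicate 3, with 0.00112 to 0.169 over the alternatives). Its locus overlaps EGLN2.

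**Figure D3:**
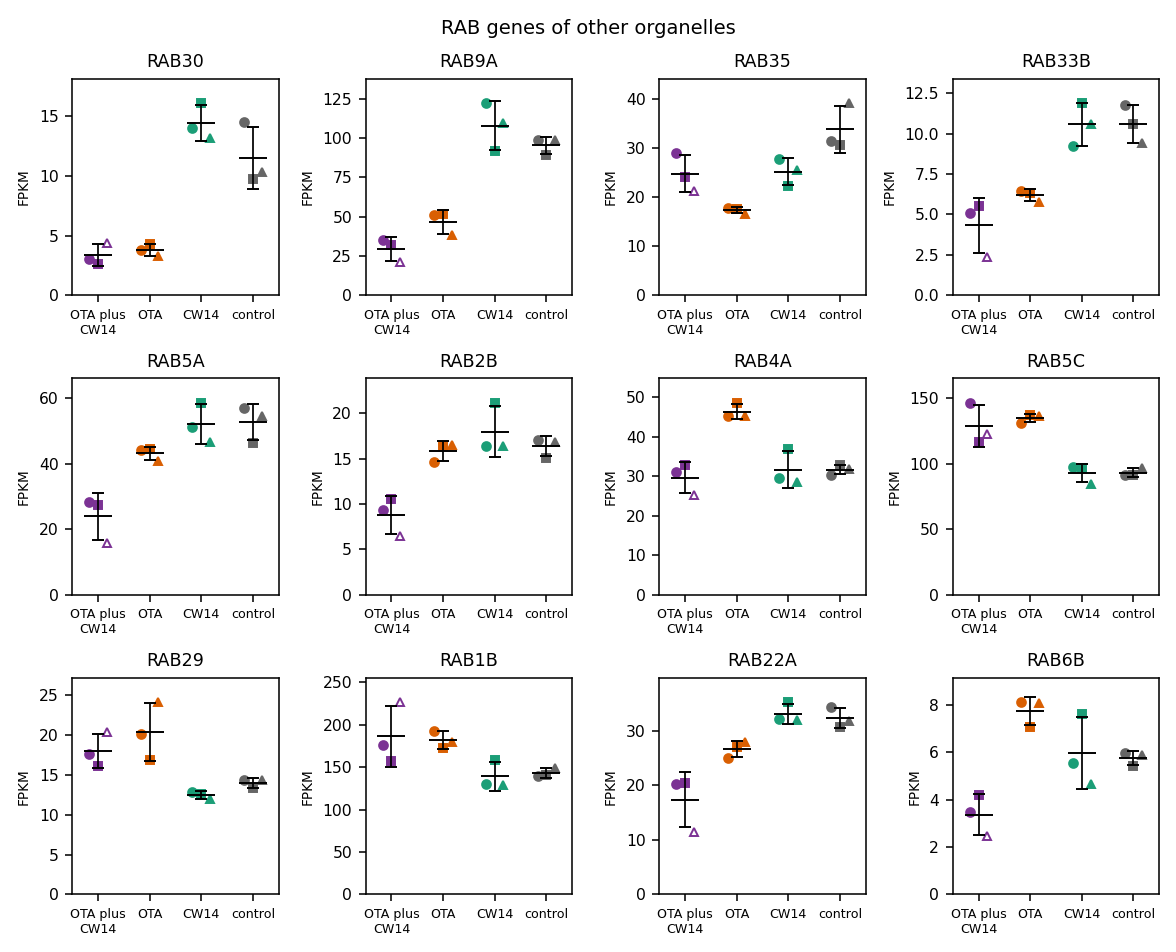
FPKM in each library of 12 members of other compartments, from left to right OTA plus CW14, OTA, CW14 and control; symbols and bars are those of the plot of apical and secretory members. RAB30 and RAB9A are low in both groups given OTA, RAB35 is lowest in OTA alone, and RAB5A, RAB2B, RAB22A and RAB6B are lowest in the combined group.

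Most abundant members did not pass the test with OTA in the fit to all libraries. RAB6A gave 0.26 (limma adjusted p = 0.417) and RAB1B gave 0.34 (adjusted p = 0.13). In both, every OTA library lay above every control library. Both were called higher without combined replicate 3 (adjusted p = 0.0461 and 0.0164). RAB7A had a log2 difference of 0.02 in OTA against control, with a 95% interval of -0.21 to 0.25, which excludes a change of the size seen in RAB9A. RAB1A gave 0.01 and RAB10, which acts in basolateral delivery, gave -0.08 with an interval of -0.57 to 0.41. RAB13, a RAB of tight junctions, gave 0.27 with an interval of -0.30 to 0.85, too wide to exclude a change of the size called in other members. By role the counts stand beside 4.82% of all genes called higher and 12.9% lower. Of 12 tested ER and Golgi members 0 rose and 1 fell, and of 10 early endosome members 2 rose and 0 fell. Of 6 late endosome and lysosome members 1 rose and 1 fell, of 4 basolateral and junction members 1 fell, and of 4 ciliary and SOCS-box members 0 were called. RAB42, in no role list, was not called either.

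CW14 against control asks what the bacteria did alone. In limma 0 of 49 members were called in either direction, where 0.217% of all genes were called higher and 0.147% lower, and 1 member had an unadjusted p under 0.05. When combined replicate 3 was left out, the count was again 0, beside 0.425% higher and 0.526% lower of all genes. The member with an unadjusted p under 0.05 was RAB35, at -0.41 (SE 0.15, adjusted p = 0.625), and its 3 CW14 libraries lay below the 3 controls. The largest positive difference was that of RAB4B, 0.47 (adjusted p = 0.841). The 95% interval was -0.10 to 0.74 for RAB30, -0.26 to 0.59 for RAB9A and -0.26 to 0.25 for RAB5C. None of these reaches the difference that OTA gave in that gene. The same held for RAB35 (-0.73 to -0.09), RAB4A (-0.31 to 0.29) and RAB29 (-0.47 to 0.16). The intervals of RAB37 (-0.03 to 0.58) and RAB3D (-0.05 to 0.45) did include their OTA differences of 0.52 and 0.44. In RAB37 and RAB3D every CW14 library lay above every control library.

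The combined group against OTA asks what CW14 changed in the presence of the toxin. Of 49 members 2 rose (RAB8A and RAB35) and 10 fell (RAB6B, RAB5A, RAB2B, RAB6A, RAB9A, RAB22A, RAB4A, RAB11A, RAB1A and RAB5B). The background was 7.79% of all genes higher and 8.22% lower, and the members' shares were 4.08% and 20.4%. The median difference was -0.16 over the members and 0.03 over all genes tested. Without combined replicate 3, 2 members rose and 13 fell, beside 9.41% and 11.8% of all genes, and 11 of the 12 calls were among these 15. With only the combined and OTA libraries in the fit, 0 members were called and 16 had an unadjusted p under 0.05, so these calls rest on the spread estimated over all 4 groups. Of the 12 tested ER and Golgi members 4 fell, and of the 10 early endosome members 4 fell, with 0 higher in either role. In the basolateral group RAB35 rose and in the apical group RAB8A rose and RAB11A fell.

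RAB5A (chromosome 3, 19988570 to 20053765), the early endosome paralogue of RAB5C, had 28.4, 27.5 and 15.7 FPKM in the combined group, 44.2, 44.4 and 40.8 FPKM in OTA, 51.1, 58.6 and 46.6 FPKM in CW14, and 57.0, 46.4 and 54.4 FPKM in control. Every combined library was below all 9 others, and combined replicate 3 was the lowest. RAB5A fell against OTA by -0.87 (SE 0.20, limma adjusted p = 0.0149, and -0.61 with adjusted p = 0.00582 without combined replicate 3), a call lost without OTA replicate 1 or 2, with adjusted p from 2.55e-05 to 0.106. RAB5A and RAB5C thus differed in direction in the combined group against control, at -1.15 (adjusted p = 0.00142) and 0.45 (adjusted p = 0.0145). With combined replicate 3 left out, these were -0.88 (adjusted p = 0.000262) and 0.48 (adjusted p = 0.00547). The RAB5C call was lost without control replicate 1 or 2 or combined replicate 1, with adjusted p from 2.39e-07 to 0.0850. The difference between the paralogues was not tested.

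RAB22A (chromosome 20, 56884769 to 56942563), a relative of RAB5 on early endosomes, had 20.2, 20.4 and 11.5 FPKM in the combined group, 25.0, 26.9 and 27.9 FPKM in OTA, 32.1, 35.2 and 31.9 FPKM in CW14, and 34.3, 30.7 and 31.7 FPKM in control. The combined libraries were the lowest and the OTA libraries lay between them and the rest. It fell against OTA by -0.63 (SE 0.18, limma adjusted p = 0.0394, and -0.37 with adjusted p = 0.0192 without combined replicate 3). This call was lost without any of the control, CW14 or OTA libraries, with adjusted p from 0.000208 to 0.177. Against control the fall was -0.90 (adjusted p = 0.00425, and -0.64 with adjusted p = 0.000538 without combined replicate 3) and was lost only with the 2 groups fitted alone (adjusted p = 0.0533), among alternatives from 7.99e-07 to 0.0533.

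RAB2B (chromosome 14, 21927177 to 21945132), which acts between ER and Golgi, had 9.33, 10.6 and 6.51 FPKM in the combined group, 14.6, 16.4 and 16.5 FPKM in OTA, 16.4, 21.2 and 16.4 FPKM in CW14, and 17.1, 15.1 and 16.9 FPKM in control. RAB6B (chromosome 3, 133543078 to 133614691), the paralogue of RAB6A best known from neurons, had 3.48, 4.18 and 2.45 FPKM in the combined group, 8.12, 7.05 and 8.08 FPKM in OTA, 5.56, 7.63 and 4.68 FPKM in CW14, and 5.98, 5.43 and 5.88 FPKM in control. In RAB2B and RAB6B every combined library lay below all 9 others. RAB2B fell against OTA by -0.80 (SE 0.17, limma adjusted p = 0.0126, and -0.62 with adjusted p = 0.00984 without combined replicate 3). RAB6B fell by -1.02 (SE 0.19, limma adjusted p = 0.00739, and -0.86 with adjusted p = 0.00749 without combined replicate 3). The RAB2B call was lost without OTA replicate 2 or 3 (adjusted p from 1.03e-05 to 0.0956 over the alternatives) and the RAB6B call only with the 2 groups fitted alone (3.71e-06 to 0.0685).

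RAB1A (chromosome 2, 65283493 to 65357435) had 147.9, 145.8 and 116.9 FPKM in the combined group, 197.2, 203.8 and 200.3 FPKM in OTA, 190.6, 206.6 and 164.1 FPKM in CW14, and 206.5, 186.3 and 203.1 FPKM in control. Its paralogue RAB1B had 176.1, 156.9 and 226.6 FPKM in the combined group, 193.1, 172.9 and 179.5 FPKM in OTA, 129.6, 158.8 and 129.1 FPKM in CW14, and 139.3, 140.5 and 149.4 FPKM in control. RAB1A was lowest in the combined group without overlap, while the RAB1B libraries with OTA, all but combined replicate 2, lay above every library without it. RAB1A fell against OTA by -0.56 (SE 0.13, limma adjusted p = 0.0166, and -0.45 with adjusted p = 0.0104 without combined replicate 3), lost without OTA replicate 2 or 3 (3.37e-05 to 0.113 over the alternatives). RAB1B gave 0.02 in the same comparison, with a 95% interval of -0.30 to 0.34. RAB6A and RAB5B were called lower at -0.67 (adjusted p = 0.0403) and -0.42 (adjusted p = 0.0404). The RAB6A and RAB5B calls were lost in 8 and 9 of the 12 fits that left out 1 library, and without combined replicate 3 they were -0.39 (adjusted p = 0.0203) and -0.31 (adjusted p = 0.0317).

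**Figure D4:**
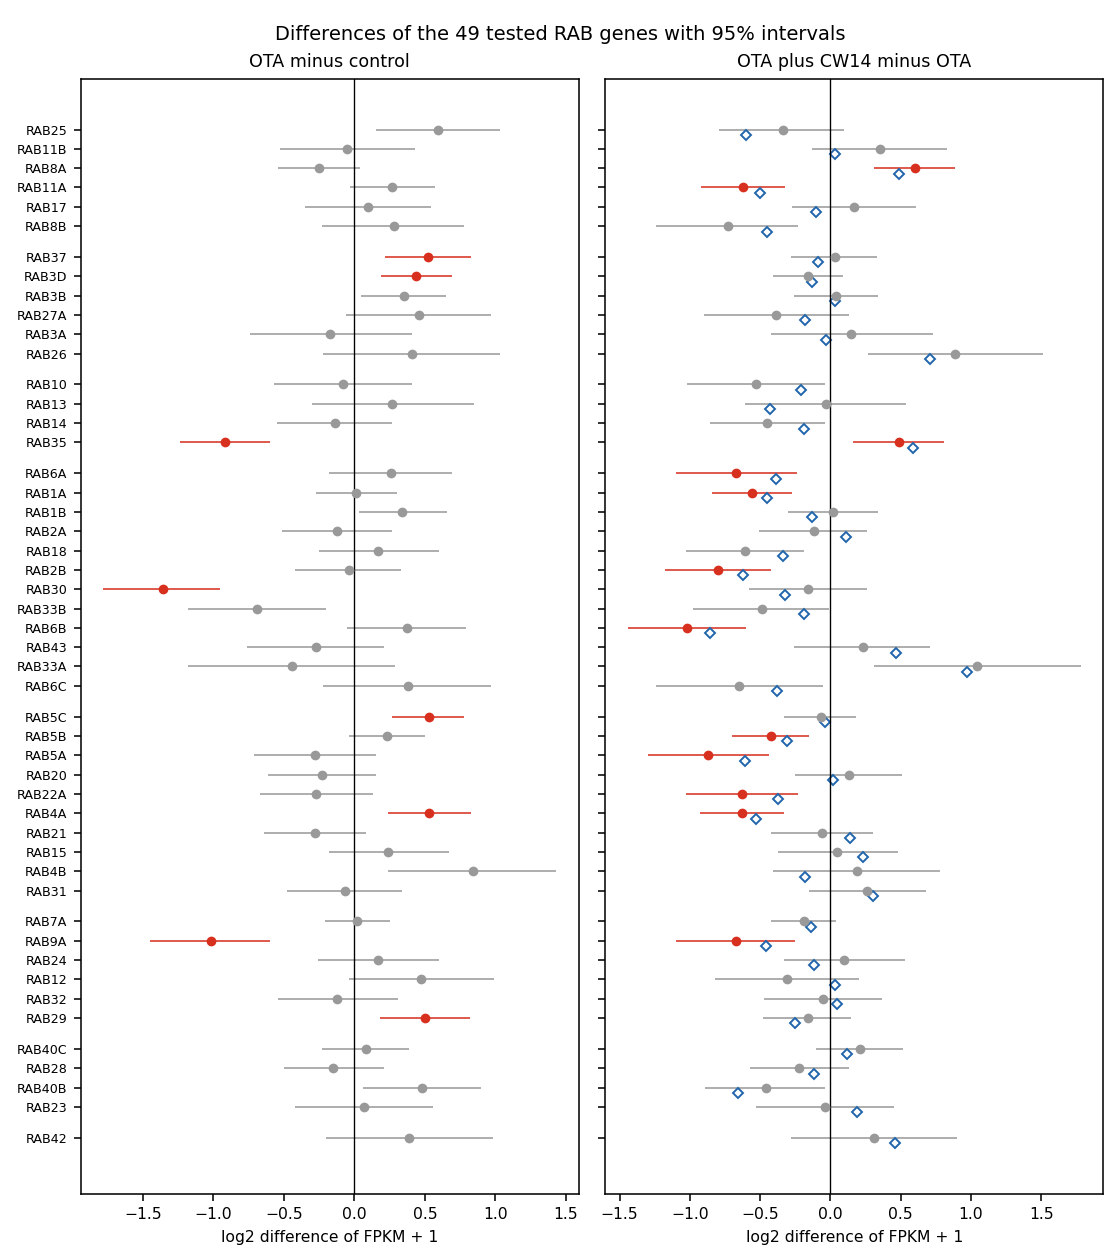
Log2 differences of FPKM + 1 with 95% intervals for the 49 tested RAB genes in OTA against control (left) and OTA plus CW14 against OTA (right), grouped by role and ordered by control level. Red marks an adjusted p under 0.05, grey marks the rest, and open diamonds give the difference without combined replicate 3; RAB30, RAB9A and RAB35 lie furthest left in the OTA panel, and 10 of the 12 red members of the other panel lie below 0.

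Against control, 5 members were called higher in the combined group and 10 lower, beside 12.0% and 16.8% of all genes. The 5 include RAB26, which passed the filter only through the combined group. In the fit that left out combined replicate 3, 7 rose and 8 fell, beside 13.7% and 19.0%, and 12 of the 15 calls were among them. The lost calls were RAB6B (-0.49, adjusted p = 0.0519), RAB35 (-0.33, adjusted p = 0.0783) and RAB3B (0.38, adjusted p = 0.0539). Quantile normalization gave 8 higher and 7 lower, and upper-quartile scaling 8 and 8. The lowest were RAB9A (-1.70, limma adjusted p = 8.3e-05), RAB30 (-1.53, adjusted p = 0.000168) and RAB33B (-1.18, adjusted p = 0.00267). When combined replicate 3 was left out, these were -1.48, -1.69 and -0.88, all still called. RAB33B (chromosome 4, 140374959 to 140397069), a Golgi RAB that binds the autophagy protein ATG16L1, had 5.10, 5.50 and 2.36 FPKM in the combined group, 6.46, 6.34 and 5.79 FPKM in OTA, 9.21, 11.9 and 10.6 FPKM in CW14, and 11.8, 10.6 and 9.44 FPKM in control. Every library with OTA lay below every library without it. In OTA alone RAB33B missed the threshold at -0.69 (adjusted p = 0.05371, and 0.0017 without combined replicate 3, with 0.000248 to 0.157 over the alternatives).

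RAB14 (chromosome 9, 123940413 to 123964365), which moves cargo between the trans-Golgi and endosomes, had 37.1, 40.8 and 22.2 FPKM in the combined group, 42.2, 47.2 and 44.2 FPKM in OTA, 45.5, 54.6 and 48.0 FPKM in CW14, and 48.7, 47.9 and 51.2 FPKM in control. The combined libraries lay below all others, replicate 3 by the widest margin. RAB14 fell against control by -0.59 (SE 0.19, limma adjusted p = 0.0345), and without combined replicate 3 by -0.33 (adjusted p = 0.0255). The call was lost without any control library, with adjusted p from 5.25e-05 to 0.139. RAB4B rose by 1.02 (adjusted p = 0.0162) with replicate 3 and by 0.66 (adjusted p = 0.0187) without it, and its combined libraries held 12.1, 8.87 and 23.5 FPKM. That call was lost without control replicate 1 or 3, with adjusted p from 3.46e-05 to 0.0965.

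Against CW14, 6 members, RAB26 again among them, were called higher in the combined group and 12 lower, beside 14.8% and 17.5% of all genes. Without combined replicate 3, 7 rose and 11 fell, beside 15.0% and 18.7%, and 16 of the 18 calls were among them, without RAB8B and RAB1B. Quantile normalization gave 9 higher and 9 lower, and upper-quartile scaling 7 and 9. The lowest were RAB9A (-1.86, limma adjusted p = 3.72e-05) and RAB30 (-1.85, adjusted p = 3.59e-05). The pair gave -1.64 and -2.01 without combined replicate 3, both called. This comparison shares the combined libraries with the previous ones, so its values are not independent of them.

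The interaction asks whether the OTA difference with CW14 present was the OTA difference without it. Of 49 members RAB35 was called higher and RAB11A lower, beside 1.85% higher and 1.49% lower of all genes, and 19 had an unadjusted p under 0.05. For RAB35 the interaction was 0.90 (SE 0.21, limma adjusted p = 0.0438) and for RAB11A -0.77 (SE 0.19, adjusted p = 0.04998). With combined replicate 3 left out, these were 1.00 (adjusted p = 0.00969) and -0.66 (adjusted p = 0.0178), and 2 members were called higher and 8 lower, beside 6.05% and 6.29% of all genes. Median-centring gave 0 higher and 2 lower (RAB11A and RAB6B) and lost RAB35. Quantile normalization gave 1 higher and 2 lower (RAB8A, RAB2B and RAB6B) and lost both RAB35 and RAB11A. Both calls were lost without each control, CW14 and OTA library in turn and without combined replicate 1, with adjusted p from 0.000186 to 0.121 for RAB35 and from 0.00016 to 0.132 for RAB11A over the alternatives.

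Members were unevenly affected by what sets combined replicate 3 apart. Its log2 deviation from the mean of combined replicates 1 and 2 ran with the GC content of the transcript, at a Spearman rho of 0.63 across the 49 members and 0.48 across the 11429 of 12928 tested genes with a matched transcript, and with transcript length at -0.51 and -0.45. These are correlations across genes of 1 library, which are not independent replicates. In it RAB13, RAB4B and RAB11B stood furthest above their group mean and RAB12, RAB10 and RAB33B furthest below. Without that library, the difference between the combined group and OTA still ran with GC content at 0.46 over the members and 0.26 over all genes, while OTA against control gave 0.14 and 0.04. The part of GC content in the falls of the combined group was not tested.

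**Figure D5:**
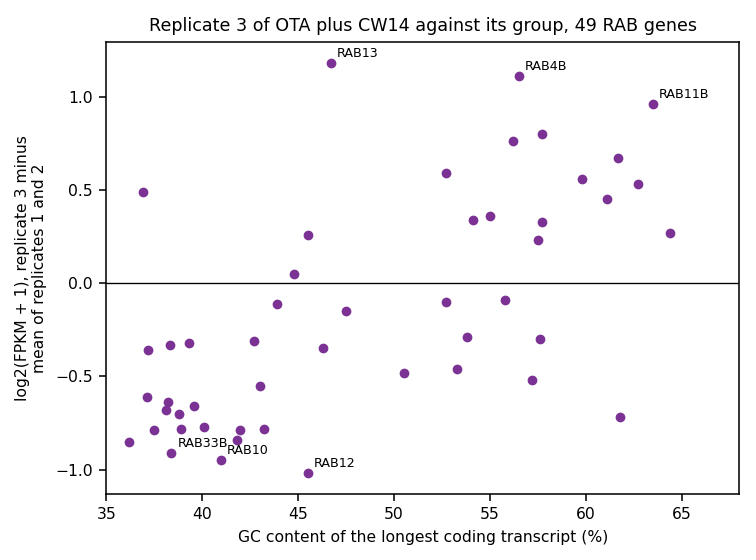
Deviation of combined replicate 3 from the mean of combined replicates 1 and 2, as log2(FPKM + 1), against the GC content of the longest coding transcript in percent; each point is 1 of the 49 tested RAB genes. Members with low GC content lie mostly below 0 and members with high GC content mostly above, with a Spearman rho of 0.63.

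Genes of the proteins that load, switch off or bind RABs were also counted. Their calls are given for the reported fit, and for some genes also without combined replicate 3 or with median-centring. How these calls fared in the other alternatives, or as other single libraries were left out, is not given. Of 172 listed genes 155 were tested, and 6 rose and 23 fell in OTA against control, 0 changed with CW14, and 6 rose and 16 fell in the combined group against OTA. Over all genes 4.82% were higher and 12.9% lower with OTA, and 7.79% and 8.22% in the combined group against OTA, and the counts of the lists below stand beside these shares. In the fit that left out combined replicate 3, the same counts were 13 and 37, 0 and 1, and 9 and 20. Of all genes, that fit called 14.7% higher and 19.0% lower with OTA, and 0.425% and 0.526% with CW14. For the combined group against OTA it called 9.41% higher and 11.8% lower. With all libraries, the medians of the listed genes were 0.01, 0.01 and 0.02, close to those of all genes (0.03, -0.02 and 0.03). Of 40 tested exchange factors 0 rose and 6 fell with OTA, beside 12.9% lower over all genes, and the list was not tested against that share. DENND3, the exchange factor of RAB12, averaged 3.09 ± 0.216 FPKM in OTA and 7.37 ± 0.987 FPKM in control (-1.03, SE 0.19, limma adjusted p = 0.00254). RIN2, an exchange factor of RAB5, averaged 9.47 ± 1.16 FPKM in OTA and 19.1 ± 1.55 FPKM in control (-0.95, adjusted p = 0.00194). The OTA and control libraries did not overlap in either gene.

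Of 34 tested GTPase-activating proteins 2 rose and 4 fell with OTA, beside 4.82% and 12.9% of all genes, and 2 rose and 4 fell in the combined group against OTA, beside 7.79% and 8.22%. TBC1D10A, which acts on RAB35 and RAB27A, averaged 4.18 ± 0.491 FPKM in OTA and 12.0 ± 2.06 FPKM in control (-1.32, SE 0.25, limma adjusted p = 0.00292). TBC1D2, which acts on RAB7A, rose in the combined group to 8.67 ± 1.95 FPKM, against 4.35 ± 0.660 FPKM in OTA (0.84, SE 0.17, adjusted p = 0.009, and 0.68 with adjusted p = 0.00739 without combined replicate 3). TBC1D23, a TBC protein of the trans-Golgi, fell in the same comparison to 16.8 ± 6.02 FPKM, against 29.9 ± 1.98 FPKM in OTA (-0.86, adjusted p = 0.0252, and -0.55 with adjusted p = 0.0134 without combined replicate 3). TBC1D2B, a relative of TBC1D2, fell to 7.12 ± 2.41 FPKM, against 12.4 ± 0.950 FPKM in OTA (-0.76, adjusted p = 0.0209, and -0.54 with adjusted p = 0.0199 without combined replicate 3). Of the 9 prenylation and recycling genes, RABIF, a chaperone of nucleotide-free RABs, fell with OTA (4.65 ± 0.532 FPKM, against 8.34 ± 1.00 FPKM in control, adjusted p = 0.0099). RABGGTB, the catalytic subunit of the RAB prenyltransferase, fell in the combined group (13.9 ± 2.46 FPKM, against 24.5 ± 2.2 FPKM in OTA, adjusted p = 0.0176, and 0.0126 without combined replicate 3).

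The effectors of apical recycling and secretion gave 1 rise and 5 falls of 29 tested with OTA, beside 4.82% and 12.9% of all genes, and 1 rise and 5 falls in the combined group against OTA, beside 7.79% and 8.22%. RAB11FIP5, a RAB11 effector of the apical recycling endosome, fell to 18.1 ± 1.20 FPKM in OTA, against 32.6 ± 1.45 FPKM in control (-0.81, SE 0.13, limma adjusted p = 0.00129). EXOC8, an exocyst subunit, fell to 7.79 ± 1.01 FPKM in OTA, against 14.4 ± 0.683 FPKM in control (-0.81, SE 0.19, adjusted p = 0.012). MYO5B, the motor that binds RAB11A and RAB8A, fell in the combined group to 5.06 ± 1.26 FPKM, against 8.61 ± 0.269 FPKM in OTA (-0.69, SE 0.16, adjusted p = 0.0183, and -0.51 with adjusted p = 0.0147 without combined replicate 3). OPTN, which binds RAB8A, fell to 14.4 ± 0.758 FPKM in the combined group, against 24.4 ± 0.823 FPKM in OTA (-0.72, SE 0.12, adjusted p = 0.00421, and -0.68 with adjusted p = 0.00203). SYTL2, an effector of RAB27A, fell with OTA (11.5 ± 2.54 FPKM, against 19.3 ± 1.78 FPKM in control, adjusted p = 0.0167) and rose when CW14 was added (17.6 ± 1.77 FPKM in the combined group, adjusted p = 0.0443, and 0.0388 without combined replicate 3), a call lost with median-centring (0.53, adjusted p = 0.0669).

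Among 43 other effectors tested, 3 rose and 7 fell with OTA, beside 4.82% and 12.9% of all genes, and 2 rose and 5 fell in the combined group against OTA, beside 7.79% and 8.22%. PLEKHM1, a RAB7A effector of lysosome fusion, averaged 2.44 ± 0.438 FPKM in OTA and 7.31 ± 0.807 FPKM in control (-1.28, SE 0.15, limma adjusted p = 0.000132). VPS18, a subunit of the HOPS tether that RAB7A recruits, averaged 2.16 ± 0.421 FPKM in OTA and 6.36 ± 0.486 FPKM in control (-1.23, SE 0.17, adjusted p = 0.000422). In the combined group VPS18 averaged 5.57 ± 0.948 FPKM and was higher than in OTA by 1.05 (SE 0.17, adjusted p = 0.00429, and 0.95 with adjusted p = 0.00413 without combined replicate 3). OSBPL1A, a sterol-binding RAB7A effector, fell in that comparison to 4.71 ± 0.995 FPKM, against 9.15 ± 0.844 FPKM in OTA (-0.84, adjusted p = 0.00629, and -0.74 with adjusted p = 0.00491 without combined replicate 3). OCRL, a phosphoinositide phosphatase that binds several RABs, fell to 16.3 ± 3.73 FPKM, against 29.3 ± 0.761 FPKM in OTA (-0.83, adjusted p = 0.0072, and -0.64 with adjusted p = 0.00177 without combined replicate 3). RABEPK, a RAB9 effector, rose with OTA to 8.90 ± 3.13 FPKM, against 3.77 ± 1.15 FPKM in control (1.03, SE 0.28, adjusted p = 0.027), while RAB9A itself fell.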

How the data were processed

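The authors deposited 1 table of FPKM per gene for the 12 libraries on hg19. The submitters' processing notes name Cuffnorm, Cuffdiff, Cufflinks 2.2.1, TopHat2 2.0.13 and cutadapt 1.10, without their order or settings. Per the labels' protocols the kit was NEBNext Ultra with paired reads of 150 bases, and no strand setting is stated. Depth in reads is unknown.

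From these values, log2(FPKM + 1) was fitted with limma 3.58.1 (R 4.3.3) with an intensity trend, 1 mean per group over all 12 libraries and 8 residual degrees of freedom. Genes with a mean under 1 FPKM were left out, and the Benjamini-Hochberg adjustment ran over all 12928 genes kept, with a threshold of 0.05. A pseudocount of 1 understates changes of low genes. The procedure was tested on simulated data with normal noise and, for each gene, the same spread in every library. That test held no library that stands apart, so it does not cover what combined replicate 3 does to the calls. Alternatives were other pseudocounts, filters and scalings, the compared groups alone, no trend, array weights, a replicate block and leaving out each library. The members and lists were chosen with earlier results of these data known. The text gives library values for tested members of the apical and secretory lists, members called in OTA against control or in the interaction, and members called in at least 2 of 5 comparisons. RAB1B was added after its values were seen, as the paralogue of RAB1A. Of each machinery list, up to 3 of the largest called differences in OTA against control and in the combined group against OTA were eligible. Promoter windows came from RefSeq (GRCh38.p14) for 48 of 61 members, matched by symbol, and no coordinates were converted. Tables and figures used Python 3.11.15, pandas 2.3.3 and matplotlib 3.10.9.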

Additional observations from a re-analysis of the deposited data

Results flagged for a closer look

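In 2 of 49 members the interaction of OTA and CW14 passed the threshold, beside 1.85% of all genes higher and 1.49% lower, so the share of members called was close to that of all genes. RAB35, which drives fast recycling, had an interaction of 0.90 on the log2 scale (SE 0.21, limma adjusted p = 0.0438). OTA against control gave -0.92, while the combined group against CW14 gave -0.02 (adjusted p = 0.917). RAB11A, the recycling endosome member, had an interaction of -0.77 (SE 0.19, limma adjusted p = 0.04998). Both values lie close to the threshold, and of 22 alternatives 16 lost the RAB35 call and 17 the RAB11A call. The libraries whose removal ends each call are given in the report.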

How the results depend on the processing

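Of 55 called member results 17 were called in every alternative (2 of them RAB26, described without a test), 38 were lost in at least 1, and 0 changed sign. With only the compared groups in the fit, the counts of called members were 19 in OTA against control (8 in the reported fit), 0 in the combined group against OTA (12, with 16 at an unadjusted p under 0.05), 6 against control (15) and 7 against CW14 (18). With array weights, whose fit did not reach its convergence tolerance, they were 24, 29, 30 and 29, and 23 for the interaction. Quantile normalization gave 7 in the combined group against OTA. The interaction count of 2 became 1 with a pseudocount of 0.1 or 0.5, and 0 without a filter, with upper-quartile scaling, without a trend and with the replicate block (17 to 20 members at an unadjusted p under 0.05). Deviations of same-numbered libraries from their group means showed little correlation (from -0.15 to 0.15). With 3 libraries a group, this cannot settle whether the numbers pair the samples. With the replicate block the other counts were 9, 0, 11, 13 and 17. CW14 against control gave 0 under every alternative. Leaving out 1 library at a time, counts ran from 4 to 20 in OTA against control, 0 to 0 in CW14 against control, 2 to 19 in the combined group against OTA, 9 to 20 against control, 10 to 23 against CW14 and 0 to 10 for the interaction. Here and above, the share of all genes called is given only for the reported fit and the fit without combined replicate 3. The counts under other settings therefore cannot tell a change in RAB genes from a change over all genes. Among uncalled members, RAB12 ran from -0.07 to 0.51 in the combined group against control and from -0.14 to 0.44 against CW14 as libraries were left out. RAB13 ran from -0.43 to 0.22 in the combined group against OTA and was 0.02 with quantile normalization. The cause of these changes was not tested. FPKM hide the number of fragments, 3 libraries a group limit precision, and the shallowest library, combined replicate 3, also differed most from its group.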

Other observations

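The summed FPKM of all 61 members was 1916, 1829 and 1874 in the combined group, 2204, 2185 and 2162 in OTA, 1973, 2141 and 1903 in CW14, and 2073, 1950 and 2072 in control. The OTA libraries lay above every library of the other groups, and combined replicates 2 and 3 lay below every library of the other 3 groups. The 18 ER and Golgi members summed to 619.4, 600.4 and 515.4 FPKM in the combined group, 762.2, 754.5 and 743.1 FPKM in OTA, 665, 763.4 and 632.1 FPKM in CW14, and 710.1, 644.3 and 688.4 FPKM in control. All 3 combined libraries were the lowest of the 12. These sums follow the most abundant members and were not tested.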
